A study of Mus musculus with 2 samples.

Results

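The canonical histone genes encode the 4 core histones H2A, H2B, H3 and H4, around which DNA is wound in the nucleosome, and the linker histone H1, which binds the DNA between nucleosomes. They lie in clusters, are transcribed mainly while a cell copies its DNA, and give short mRNAs without introns that end in a stem-loop in place of a poly(A) tail. The stem-loop binding protein and the U7 small nuclear ribonucleoprotein direct the cut that forms this end. In a resting tissue such as adult liver most of these genes are little transcribed, and nucleosomes are renewed from replacement histones, whose genes are read throughout the cell cycle. The labels name a whole-transcript labelling kit, a type that primes along the RNA and so does not depend on a poly(A) tail.

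The genes were chosen by name, as those whose symbol begins with Hist1h, Hist2h, Hist3h or Hist4h, pseudogenes left out, and whose probe sets name no other gene. No symbol of the platform annotation began in this way (0 genes), because it carries the present nomenclature. The earlier names were therefore read from the synonyms of the RefSeq table of GRCm38.p6 through the gene identifiers, without use of any measured value. They marked 68 genes, of which 28 had a probe set of their own, out of 22180 genes measured. A further 39 genes were covered solely by probe sets that name several histone genes, and 1, H2ac14, by none. The 28 genes comprised 5 of 6 for H1, 7 of 19 for H2A, 8 of 18 for H2B and 8 of 13 for H4. None of the 12 H3 genes had a probe set of its own, so the H3 class has no gene-level value and appears below through shared probe sets.

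The measurements came from livers of male mice of 2 genotypes, Iah1-WT (the wild type) and Iah1-KO (knockout of Iah1, which encodes an esterase-like enzyme). All animals ate chow until 6 weeks of age and then high-fat pellets for a further 12 weeks, were housed singly, and were killed after 4 hours without food. RNA from 3 mice was pooled for each genotype and hybridised to 1 Affymetrix array, so there is no replicate error, no test of genotype and no p-value in what follows. The labels used here do not give the strain, the way the allele was made or the littermate status. Values are log2 signals after RMA, and differences are Iah1-KO minus Iah1-WT. A gene counts as above the intensity filter where the higher of its 2 values reaches 4.68, the median of that value over all genes.

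Array quality and labels were checked first. Iah1 itself was at 8.59 in the Iah1-WT array and 3.90 in the Iah1-KO array, as the labels have it. The median over all probe sets was 4.08 in Iah1-WT and 4.10 in Iah1-KO, and over the 11090 genes above the filter the differences had a median of -0.02. The hepatocyte markers Alb (13.3 in both arrays), Ttr (12.8 in both) and Apoa1 (10.5 in both) matched the labelled tissue. The others listed were Serpina1e (10.3 in Iah1-WT and 9.77 in Iah1-KO), Hnf4a (10.2 in both) and Ahsg (12.8 and 12.7). With single arrays, error can be read solely from genes that have more than 1 probe set. The differences of such probe sets scattered around their gene's mean with an SD of 0.27 (log2, 601 genes), and of 0.31 among the dimmest 25% of genes above the filter (206 genes). This probe set error covers different probes, not mice or hybridisation. Because a pool is bulk tissue, fewer cells of a type and less RNA per cell cannot be told apart.

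The stretches upstream of the histone genes above the filter are shown for sequence motifs known from this family, which the choice by name did not use. Each is the 150 bases before the RefSeq start site in GRCm38.p6, read 5′ to 3′ on the gene's own strand. Capitals mark 5 motifs searched on both strands: TATAA, the core of the TATA box; CCAAT, the CCAAT box; ATTTGCAT, the octamer bound by POU factors; AAACACA, the AC box known from H1 genes; and GGTCCG, part of the cell cycle element (site II) of H4 genes. The H1 gene H1f2 (chr13:23738657-23738806, plus strand), the H2A genes H2aw (chr11:58954535-58954684, plus), H2ac10 (chr13:23533725-23533874, plus) and H2ac20 (chr3:96220881-96221030, minus), the H2B gene H2bc3 (chr13:23746584-23746733, plus), and the H4 genes H4c12 (chr13:21750554-21750703, minus), H4c9 (chr13:22041363-22041512, minus) and H4f16 (chr6:136804432-136804581, minus) read as follows.
H1f2: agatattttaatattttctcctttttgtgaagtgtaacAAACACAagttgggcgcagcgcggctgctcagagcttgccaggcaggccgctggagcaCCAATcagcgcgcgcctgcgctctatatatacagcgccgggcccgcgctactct
H2aw: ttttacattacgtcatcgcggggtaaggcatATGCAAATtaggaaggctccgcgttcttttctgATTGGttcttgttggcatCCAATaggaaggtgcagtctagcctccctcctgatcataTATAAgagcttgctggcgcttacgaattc
H2ac10: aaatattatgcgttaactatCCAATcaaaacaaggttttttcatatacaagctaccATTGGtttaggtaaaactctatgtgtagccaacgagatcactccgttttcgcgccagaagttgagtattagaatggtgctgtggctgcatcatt
H2ac20: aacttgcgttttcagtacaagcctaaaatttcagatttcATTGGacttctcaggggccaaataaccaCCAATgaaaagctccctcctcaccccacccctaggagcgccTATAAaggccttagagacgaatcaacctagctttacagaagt
H2bc3: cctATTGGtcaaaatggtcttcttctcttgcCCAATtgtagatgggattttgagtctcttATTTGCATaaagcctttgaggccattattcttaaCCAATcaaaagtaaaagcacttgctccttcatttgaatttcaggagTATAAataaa
H4c12: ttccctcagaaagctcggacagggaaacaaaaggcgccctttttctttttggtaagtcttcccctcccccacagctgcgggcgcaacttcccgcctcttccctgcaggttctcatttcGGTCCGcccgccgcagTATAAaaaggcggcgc
H4c9: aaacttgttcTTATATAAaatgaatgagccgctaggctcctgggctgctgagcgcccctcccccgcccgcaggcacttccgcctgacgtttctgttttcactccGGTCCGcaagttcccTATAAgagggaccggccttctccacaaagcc
H4f16: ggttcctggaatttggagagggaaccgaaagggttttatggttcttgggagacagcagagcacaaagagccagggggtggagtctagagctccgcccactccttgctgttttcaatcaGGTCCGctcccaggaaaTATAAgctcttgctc

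RefSeq windows were matched for 26 of the 28 genes (not H2bc21 and H4c14), and motifs were counted over the 250 bases before the start site. CCAAT was present in 5 of 5 H1, 7 of 7 H2A and 7 of 7 H2B windows, but in 1 of 7 H4 windows, and in 34.2% of 27025 windows of the same length over all genes. The octamer ATTTGCAT was found in 5 of 7 H2B and 4 of 7 H2A windows, in 0 of 5 H1 and 0 of 7 H4 windows, and in 1.59% of all windows. AAACACA was in 4 of 5 H1 windows, 1 H2A window and 2 H2B windows (6.34% of all), and GGTCCG in 4 of 7 H4 windows and 1 H2B window (6.73% of all). TATAA was in 18 of 26 windows, against 23.4% of all. In the stretches printed above, H2ac10 carried CCAAT alone and H2ac20 carried CCAAT and TATAA, motifs found in several classes. Near-identical copies share their upstream sequence, so these windows are not independent, and a match describes letters and not a bound site.

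Most of the 28 histone genes with a probe set of their own gave dim signals. As a whole these 28 lay near 0. Several probe sets that name more than 1 histone gene were bright, up to 11.2 in both arrays, and are given below. Of the 28 genes, 8 were above the filter, against 50% of all genes by its definition, and 20 were below it in both arrays. By sign, 13 of 28 were higher and 15 lower in Iah1-KO, with a median difference of -0.03, against 48.9% higher and a median of -0.01 over all 22180 genes. At 1.5-fold, 4 of the 28 were higher (2.58% of all genes were) and 1 was lower (2.6% of all genes were). Of those 5 genes, 3 were below the filter in both arrays and the other 2 were below it in Iah1-WT. The brightness of a probe set depends on its probes as well as on its RNA, so values of different genes are not ranked against each other here.

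**Figure D1:**
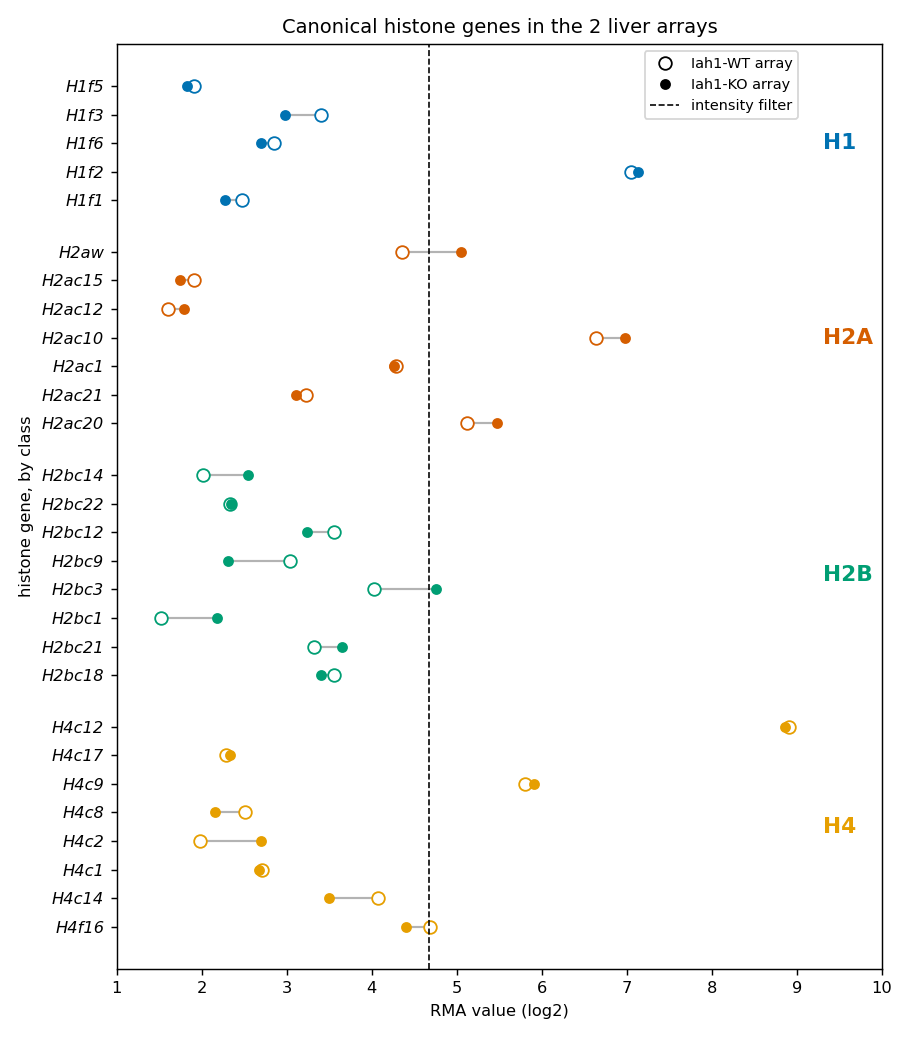
RMA values (log2, horizontal axis) of the 28 canonical histone genes (vertical axis), grouped by histone class. Open circles are the Iah1-WT array, filled circles the Iah1-KO array (1 pool of 3 mice each, no error bar possible), and the dashed line is the intensity filter at 4.68. A reader should see 20 genes left of the line in both arrays, H2aw and H2bc3 crossing it to the right in Iah1-KO, and H4c12, H4c9 and H1f2 with circles almost on top of each other.

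Linker histone H1 was represented above the filter by H1f2 (earlier name Hist1h1c), which encodes the somatic subtype H1.2. H1f2 was at 7.05 in Iah1-WT and 7.13 in Iah1-KO, a difference of 0.08 or 1.06-fold. This is smaller than the probe set error of 0.27. The other 4 H1 genes, H1f1, H1f3, H1f5 and the testis-specific H1f6, lay below the filter in both arrays, between 1.82 and 3.41. All 4 were lower in Iah1-KO, by differences from -0.09 for H1f5 to -0.42 for H1f3. Over all genes below the filter in both arrays, 53.5% were higher in Iah1-KO. The median of the 5 H1 genes was -0.15, of the opposite sign to H1f2.

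Above the filter were 3 H2A genes, H2aw through the Iah1-KO array alone. Each had a higher value in Iah1-KO, as did 44.3% of all genes above the filter, and 3 genes are too few to read as a class. H2ac10 (Hist1h2af), a gene of the large cluster on chromosome 13, was at 6.63 in Iah1-WT and 6.98 in Iah1-KO, a difference of 0.34 or 1.27-fold. H2ac20 (Hist2h2ac), in the cluster on chromosome 3, was at 5.12 and 5.47, a difference of 0.35 or 1.27-fold. Each of these 2 differences exceeded 1 probe set standard deviation and stayed short of 1.5-fold. At a difference of 0.32 or more, which both passed, 6.62% of genes above the filter were higher in Iah1-KO and 10.4% were lower. H2ac20 belonged to the dimmest 25% of genes above the filter, where the differences of all genes had an SD of 0.36.

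H2aw (Hist3h2a), which lies apart from the large clusters on chromosome 11, was at 4.35 in Iah1-WT and 5.05 in Iah1-KO. The difference of 0.70 is 1.62-fold between the RMA values. Iah1-WT lay below the filter, and against the filter H2aw was at least 1.29-fold higher. The filter is not a detection limit, and such a bound leaves out measurement error. Of the 446 genes that, like H2aw, passed through the Iah1-KO array alone, 21.3% differed by 1.5-fold or more. The remaining 4 H2A genes were below the filter in both arrays, from H2ac15 at -0.17 to H2ac12 at 0.18. H2ac1, a testis gene, was at 4.29 in Iah1-WT and 4.26 in Iah1-KO. H2ac21 had 2 probe sets that disagreed in sign, at -0.30 and 0.07. The median of all 7 H2A genes was 0.18.

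Among the H2B genes H2bc3 (Hist1h2bb) was above the filter, and only in Iah1-KO. It was at 4.03 in Iah1-WT and 4.75 in Iah1-KO, a difference of 0.73 or 1.66-fold between the RMA values. Against the filter H2bc3 was at least 1.05-fold higher, a bound close to 1 that does not by itself show a difference. Of the 8 genes above the filter, H2aw and H2bc3 were higher at 1.5-fold and none was lower, where 1.47% of all genes above it were higher and 2.45% lower. Both passed only through the array in which they were high, so this count is a description, and the share to set beside them is the 21.3% among genes that passed in the same way. With the filter on the mean of the arrays H2bc3 dropped out, which left 1 of 7. Both genes belonged to the dimmest 25% of genes above the filter, in which 4.36% of 2773 genes were higher and 5.48% lower at this threshold.

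The other 7 H2B genes lay below the filter in both arrays and went both ways. H2bc9 had the largest difference below 0, at 3.04 in Iah1-WT and 2.31 in Iah1-KO, a difference of -0.73. The testis gene H2bc1 was at 1.52 and 2.18, a difference of 0.67, and H2bc14 at 2.02 and 2.55, a difference of 0.53. Such values lie near the floor of the arrays. Over all genes below the filter in both arrays, 3.69% were higher and 2.74% lower by 1.5-fold. The median of all 8 H2B genes was 0.17.

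Of the 3 H4 genes above the filter, 2 had differences smaller than the probe set error. H4c12 (Hist1h4k) was at 8.90 in Iah1-WT and 8.86 in Iah1-KO, a difference of -0.04 or 1.03-fold. H4c9 (Hist1h4i) was at 5.80 and 5.91, a difference of 0.11 or 1.08-fold. H4f16 (Hist4h4), a single gene on chromosome 6, was at 4.68 in Iah1-WT, just on the filter, and 4.40 in Iah1-KO, a difference of -0.28 that is about the size of the probe set error. Its 2 probe sets pointed the same way, at -0.20 (3.55 in Iah1-WT and 3.35 in Iah1-KO) and -0.36 (5.82 and 5.46), and the second was above the filter in both arrays. Below the filter, 5 H4 genes ranged from -0.57 for H4c14 (4.07 in Iah1-WT and 3.50 in Iah1-KO) to 0.71 for H4c2 (1.98 and 2.69). The median of all 8 H4 genes was -0.04.

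Position gave no common direction. Of 21 genes in the chromosome 13 clusters, 10 were higher in Iah1-KO, with a median of -0.02, and of 5 genes on chromosome 3, 2 were higher, with a median of -0.12. H2A and H2B genes often sit side by side, and 3 such pairs were measured with both partners. H2ac20 and its neighbour H2bc21 differed by 0.35 and 0.32, where H2bc21 was below the filter. H2ac12 and H2bc12 differed by 0.18 and -0.32, and H2ac1 and H2bc1 by -0.02 and 0.67, with all 4 genes below the filter.

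Probe sets that name several histone genes held the other 39 genes, among them all the H3 genes. They also named 15 of the 28 genes that had a probe set of their own. There were 38 of them, with 35 distinct pairs of values, and 9 of the 35 were above the filter. In this group 6 of 9 were higher in Iah1-KO, with a median difference of 0.09, against 48.6% higher among the 784 probe sets of several genes that passed the filter. Such probe sets sum over several genes, mostly near-identical copies, and the part of each gene in the signal is unknown. One names the H1 gene H1f4 together with the H2B genes H2bc4, H2bc6 and H2bc8. It was below the filter, at 4.66 in Iah1-WT and 4.59 in Iah1-KO.

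**Figure D2:**
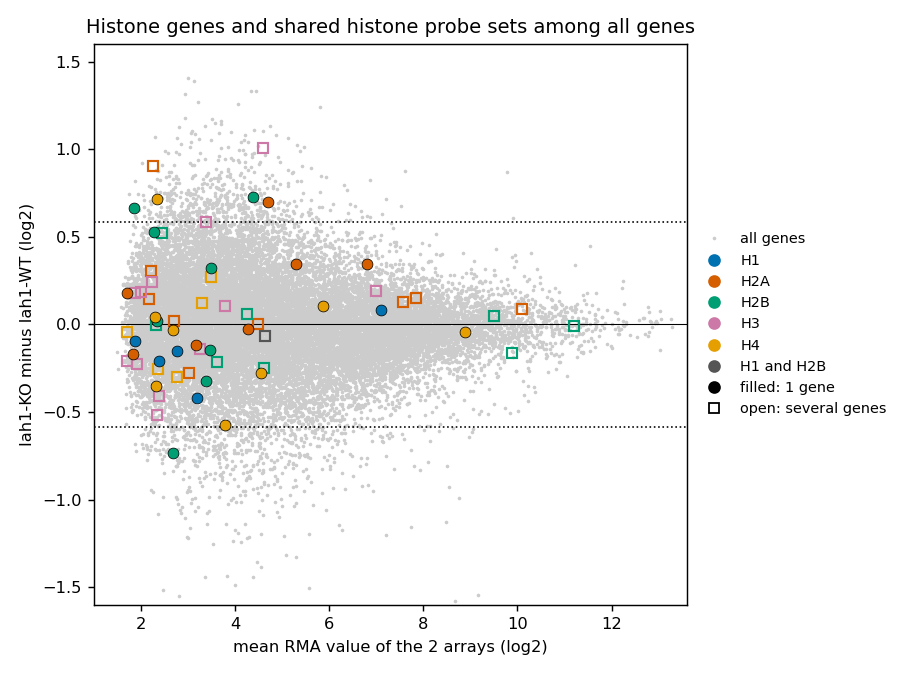
Difference Iah1-KO minus Iah1-WT (log2, vertical axis) against the mean RMA value of the 2 arrays (log2, horizontal axis) for all 22180 genes (grey; 5 genes beyond 1.6 in either direction are not drawn), the 28 histone genes (filled circles) and the 35 shared histone probe sets (open squares), coloured by class. Dotted lines mark 1.5-fold. The histone points widen with the grey cloud towards the dim end and lie close to 0 at the bright end, where the shared H2A and H2B probe sets sit between -0.17 and 0.15.

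The shared H2A probe sets above the filter were higher by small amounts. The probe set of H2ac18, H2ac19 and H2ac20 was at 10.05 in Iah1-WT and 10.1 in Iah1-KO, a difference of 0.09. Another, led by H2ac22 and naming 10 genes, was at 7.76 and 7.91, a difference of 0.15, and one naming 12 genes at 7.50 and 7.63, a difference of 0.13. These 3 lie below the probe set error of 0.27, in the same direction as H2ac10, H2ac20 and H2aw. H2ac10 and H2ac20 are themselves named in 2 of these probe sets, so the values are not separate evidence. The probe set naming 12 genes also names H2ac12 and H2ac15, which were below the filter by their own probe sets.

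The shared H2B probe sets did not follow H2bc3. The probe set of H2bc4, H2bc8 and H2bc6 was at 11.2 in both arrays, with a difference of -0.01. One of 4 genes led by H2bc13 was at 9.97 in Iah1-WT and 9.81 in Iah1-KO, a difference of -0.17, and one of 12 genes led by H2bc6 was at 9.48 and 9.53, a difference of 0.05. The fourth, led by H2bc8, was at 4.75 and 4.50, a difference of -0.25, with Iah1-KO below the filter. None of the 4 names H2bc3. The one led by H2bc6 also names H2bc9, H2bc12 and H2bc14, which were below the filter by their own probe sets.

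For H3, which carries many of the modified lysines of chromatin, 2 of 12 shared probe sets were above the filter. The probe set of 8 genes led by H3c15 was at 6.91 in Iah1-WT and 7.10 in Iah1-KO, a difference of 0.19. The probe set of 4 genes led by H3c10 was at 4.08 and 5.09, a difference of 1.01 or 2.01-fold between the RMA values. Iah1-WT lay below the filter there, against which this probe set was at least 1.33-fold higher. Of the 9 shared histone probe sets above the filter it alone was higher by 1.5-fold and none was lower, where 2.04% of all probe sets of several genes above the filter were higher and 1.66% lower. It passed through the Iah1-KO array alone, and of the 33 probe sets of several genes that did so 24.2% differed by 1.5-fold or more. The other 3 probe sets that name the same 4 genes were at 2.09 or less in both arrays, with differences of 0.18, 0.18 and -0.21. All 5 shared H4 probe sets were below the filter, with a median of -0.04.

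Genes that work with histones were compared from lists whose members were listed by function. Replacement histone genes had 6 of 13 measured members above the filter, with 4 higher and 2 lower in Iah1-KO and a median of 0.08. For this list and those that follow, the share of all genes above the filter that were higher is the 44.3% given above, and their median is -0.02. At 1.5-fold 1.47% of all genes above the filter were higher and 2.45% lower. H2az1, which encodes the variant H2A.Z found at promoters, was at 5.21 in Iah1-WT and 5.73 in Iah1-KO, a difference of 0.52 or 1.43-fold. Its paralogue H2az2 was at 7.64 and 7.68, a difference of 0.04. Macroh2a1, which encodes a variant with a large extra domain, differed by 0.22, H2ab2 by -0.14, and H2ax, whose product is phosphorylated at DNA breaks, by -0.05. None of the 6 reached 1.5-fold. H1f0, and H3f3a and H3f3b, which encode H3.3, were not found among the genes with a probe set of their own.

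Histone mRNA processing genes showed no common shift. Of 21 measured, 19 were above the filter, 11 higher and 8 lower in Iah1-KO, with a median of 0.02 and none at 1.5-fold. Slbp, which encodes the stem-loop binding protein, was at 6.54 in Iah1-WT and 6.81 in Iah1-KO, a difference of 0.27. Lsm11, which encodes a subunit of the U7 particle, was at 4.29 and 4.78, a difference of 0.49, with Iah1-WT below the filter. Casp8ap2, a component of histone locus bodies, was lower, at 5.57 and 5.27, a difference of -0.30. Npat, the coactivator of histone gene transcription, differed by -0.11. Cpsf3, which encodes the nuclease that cuts histone pre-mRNA and is a neighbour of Iah1 on chromosome 12, was at 7.56 and 7.51, a difference of -0.05.

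Histone chaperone and assembly genes, 23 of 25 above the filter, had a median of 0.00 (0.00045), with 12 higher and 11 lower and none at 1.5-fold. Members with the largest differences were Dnajc9 (5.69 in Iah1-WT and 6.14 in Iah1-KO, 0.45) and Nasp (5.51 and 5.95, 0.44), whose products hold H3 and H4 before assembly, and Asf1a (6.84 and 6.62, -0.22), which hands H3 and H4 to assembly factors.

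The S phase and replication list, a marker set for the time when canonical histone genes are read, did not move in 1 direction. Of 44 measured genes 32 were above the filter, 12 higher (beside 44.3% of all genes above the filter) and 20 lower in Iah1-KO, with a median of -0.04 beside -0.02. E2f8, a repressor of E2F target genes, was the 1 member past 1.5-fold, at 6.18 in Iah1-WT and 5.55 in Iah1-KO, a difference of -0.63. This 1 of 32 stands beside 1.47% higher and 2.45% lower over all genes above the filter, and is not read as a result about the list. Uhrf1, which maintains DNA methylation at replication forks, was at 4.60 and 5.17 (0.57) and Ccne1, which encodes cyclin E1, at 4.58 and 5.11 (0.53), both below the filter in Iah1-WT. The proliferation marker Mki67 was at 5.65 and 5.64, a difference of -0.00 (-0.0046) whose sign changed with the scaling. Top2a was below the filter in both arrays, at 3.60 and 3.83.

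**Figure D3:**
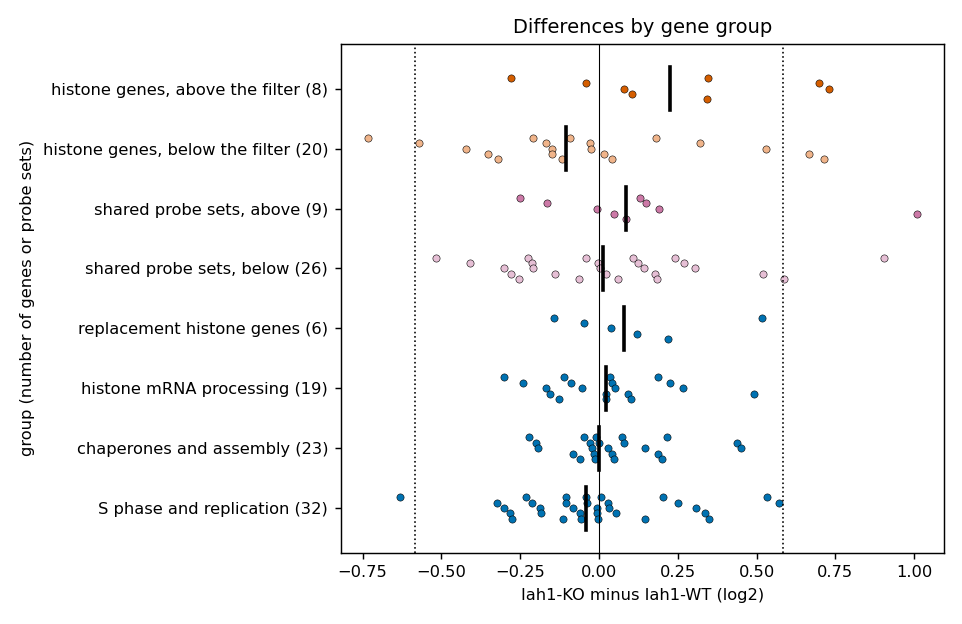
Difference Iah1-KO minus Iah1-WT (log2, horizontal axis) of single genes or shared probe sets (points) by group (vertical axis, number in brackets), with the group median as a black bar and 1.5-fold as dotted lines. Vertical scatter within a group has no meaning. The points of the histone genes above the filter run from -0.28 to 0.73 and those below it from -0.73 to 0.71, while the 3 lists of processing, assembly and S phase genes have medians between -0.04 and 0.02.

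Markers of other liver cells differed between the pools. All 12 macrophage markers were lower in Iah1-KO, with a median of 7.33 in Iah1-WT and 6.80 in Iah1-KO and a median difference of -0.47. Of all genes above the filter, 44.3% were higher. All 12 sinusoidal endothelial markers were lower as well, at medians of 7.89 and 7.36 and a median difference of -0.56. By 1.5-fold, 3 of the 12 macrophage and 5 of the 12 endothelial markers were lower and none was higher. Over all genes above the filter 2.45% were lower and 1.47% higher at this threshold. Stellate cell markers had a median difference of -0.19 and a mean of -0.09, with 6 of 8 lower. Des, the 1 stellate marker past 1.5-fold, was higher, at 3.75 in Iah1-WT, below the filter, and 4.68 in Iah1-KO, a difference of 0.93. Of all genes that, like Des, passed through the Iah1-KO array alone, 21.3% differed by 1.5-fold or more. The 6 hepatocyte markers had a median difference of -0.04 and a mean of -0.10, with 4 of 6 lower. Serpina1e differed most among them, by -0.49. The 2 cholangiocyte markers above the filter, Sox9 and Krt23, both differed by -0.17. None of 8 T and NK cell, 5 B and plasma cell or 7 neutrophil markers was above the filter, nor were the 5 testis-restricted histone genes. The part of cell composition in the histone values was not tested.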

How the data were processed

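Liver RNA was measured on 2 Affymetrix arrays, 1 per genotype, each with pooled RNA of 3 mice (100 ng for labelling, per the labels' protocols). The deposited table holds 1 log2 value per probe set and array (41345 probe sets, 1.18 to 13.5), made by the authors with RMA in Affymetrix Expression Console 1.3.0, per the submitters' processing notes. RMA equalises the distributions of the arrays, which removes any general shift, and compresses differences of dim probe sets. No genome build is named for the array design in the labels. Array precision is limited by the number of arrays.

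Of the probe sets, 23521 named 1 gene, 1814 several and 16010 none. Gene values were means of log2 values over a gene's probe sets (22180 genes). Filter, thresholds and lists were applied to all genes in Python 3.11.15 with pandas 2.3.3. Named genes were, in each class, those above the filter past 1.5-fold (0.58 on the log2 scale), the 3 with the largest difference and the 2 with the highest mean, those with probe sets of opposite sign, and in each other list the 3 with the largest difference and some set by function. The members and lists were chosen with earlier results of these data known, the shared probe sets after their values were seen. Genes were counted by size, and the counting was tested on simulated data. Alternatives covered the filter, the scaling (loess span 0.4, quantile, median), the probe set and the threshold.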

Additional observations from a re-analysis of the deposited data

How the results depend on the processing

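No paired analysis was possible because each genotype has 1 array, and for the same reason no array could be left out. Averaging genes with identical proteins was not run, since no protein sequences were used here. The 155 values of single named genes all moved by less than the probe set error of 0.27 under their alternatives. Many of them could not move, since a filter leaves a gene's value as it is. The choice of probe set likewise changes nothing for a gene with 1 probe set. Filters change which genes are counted, and they moved several summaries. Of 8 genes above the main filter 2 were higher and none lower at 1.5-fold (median 0.22). Over all genes above it, 1.47% were higher and 2.45% lower. Without a filter 4 of 28 were higher and 1 lower, beside 2.58% and 2.6% of all genes. The medians were then -0.027 for all 28, -0.15 for H1, 0.18 for H2A and 0.17 for H2B. With the filter at the 75th percentile (6.52) 0 of 3 were higher (median 0.080), and the S phase median became 0.20 over 3 genes. With the filter on the mean of the arrays 1 of 7 was higher (median 0.11). At 2-fold 0 of 8 were higher. At a difference of 0.32 (log2) 4 of 8 were higher and 0 lower, beside 6.62% and 10.4% of all genes above the filter. H2aw and H2bc3, which are among these 4, passed through the Iah1-KO array alone. Hist1 genes alone had a median of 0.11. Chosen after seeing the data, leaving out H4f16, which lies on the filter, gave 0.34 for all and 0.03 for H4. Adding the shared probe sets gave 0.11 for all and -0.0073 for H2B, which turned its sign from 0.73, the value of H2bc3 alone. The median of the shared H3 probe sets was 0.60 over 2 above the filter, 0.14 over all 12 and 0.19 for the 1 above the 75th percentile. The cause of the differences was not tested. Dim signals limit 20 of the 28 genes.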
